A study of Mus musculus with 20 samples.

Results

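The genes described here are 40 mouse genes of DNA repair, chosen by name from the pathways that remove alkylated and oxidised bases, bulky adducts and mismatches and that rejoin broken DNA. They are 40 of 17466 genes tested on single-colour microarrays of natural killer (NK) cells, lymphocytes that kill infected and tumour cells without prior priming. RNA came from the spleens of 20 male C57BL/6 mice, a different donor for every array, with 5 mice in each of 4 groups. Control mice received water. Ptaquiloside mice received ptaquiloside at 5.3 mg/kg, selenium mice received selenium at 1.3 mg/kg, and the fourth group received both at these doses, each by daily gavage for 14 days. Ptaquiloside is a glucoside made by bracken fern and a carcinogen of grazing animals; selenium is a trace element that cells need for their selenoproteins. The NK cells were left unbound while other spleen cells were held on magnetic columns, so cells that escaped the columns add RNA to each sample.

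Ptaquiloside loses its sugar to become a reactive dienone that alkylates purines in DNA. Alkylated bases are handled by a few routes: direct reversal pulls an alkyl group off the base, base excision cuts out the single damaged base and refills the gap, and nucleotide excision removes a short stretch of strand around a bulky lesion. Where a damaged base is lost or a replication fork meets a lesion the strand can break, and breaks are rejoined by homologous recombination, which copies a sister chromatid, or by end joining, which ligates the ends. Homologous recombination and the Fanconi anaemia pathway work mainly in cells that replicate their DNA. Many repair genes are read in most cell types, and resting lymphocytes rely largely on excision repair and end joining.

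The level of a gene is the log2 of its probe's background-subtracted signal minus the 75th percentile of the array, so that a level of 0 equals that percentile and a difference of 1 between groups is a doubling. Levels of different probes depend on the probes, so an order of genes by control signal is not an order of message amounts. The array of ptaquiloside mouse 4 stood apart from the rest. Its 75th percentile was 10.5 scanner units against 45.5 to 133 on the other 19 arrays, and 36.3% of its spots were well above background against 51.7% to 60.8%. Per the header of their table, the authors replaced this mouse and control mouse 1 by averages of their group mates. The array of control mouse 1 had a 75th percentile of 121 and is kept here, and results of ptaquiloside mice are given with and without mouse 4. The mouse number marks the slide, and each of the 5 slides held 1 mouse of every group. A group always lay at the same slide position, so treatment cannot be told apart from position. Counts of slides on which a gene was higher or lower describe single genes. The share of all genes with such counts was not worked out. On the slide of mouse 4 the ptaquiloside reading comes from the dim array. All 12 NK cell markers were measured, with a summed level of 8.37 to 9.29 in control mice. The 8 measured macrophage and monocyte markers summed to 8.85 to 9.32 there, and the 7 measured neutrophil markers to 7.56 to 8.55. Such sums depend on the probes and are not shares of cells, so the levels below are those of the whole isolate. Markers of B cells, T cells, neutrophils, macrophages, dendritic cells, erythroid cells and platelets were measured too, and are given where they differed beside a result. In such bulk samples fewer cells of a type and less RNA per cell cannot be told apart. With 5 arrays a group, their number sets how precise any value here can be.

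All 40 repair genes were measured. They had 68 probes, of which 61 were well above background on at least 5 arrays, and the brightest of these stood for its gene. In 16 genes that probe was well above background on all 20 arrays, in 19 on 19, and in the other 5, Nthl1, Lig3, Ercc2, Rad50 and Xrcc6, on 15 to 18. On the dim array alone 24 of the 40 were not well above background. No probe used was saturated.

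The readings of the dim array can be compared within a gene for Parp1, a sensor that binds DNA breaks and marks them with chains of ADP-ribose. The array carries a pair of 60-base Parp1 probes that share 40 bases of the same exon-spanning stretch of the transcript, on chromosome 1 between mm9 positions 182530321 and 182530639, plus strand. They are shown because both probes read the same stretch of message; capitals mark the shared 40 bases.
first Parp1 probe: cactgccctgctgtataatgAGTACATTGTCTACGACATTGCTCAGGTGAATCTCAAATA
second Parp1 probe: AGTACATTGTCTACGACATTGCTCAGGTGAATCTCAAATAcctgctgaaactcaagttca
On the 19 other arrays the first probe minus the second was -0.49 to 0.51 on the log2 scale, with a median of -0.24. On the array of ptaquiloside mouse 4 it was 2.38, the first probe reading 1.24 and the second -1.15. The first reading lay inside the range of that probe on the other arrays and the second lay below the lowest of -0.41. The second probe, the brighter on average, is the one used for Parp1 below. A pair of Ogg1 probes that also share 40 bases departed far less: one minus the other was -1.20 on that array and -0.91 to -0.40 on the 19 others.

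Across the 40 genes the array of ptaquiloside mouse 4 gave the lowest of all 20 readings in 26 genes and the highest in 6. Its distance from the mean of the other 4 ptaquiloside mice ran from -3.57 for Mre11a to 3.43 for Mgmt, with a median of -1.09. Of the 20 genes with the higher signal in control mice, 18 read lower there, at a median distance of -1.54, and Tdg and Lig1 read higher. Of the 20 with the lower signal, 13 read lower, at a median of -0.37. Differences that rest on this mouse therefore did not all point one way.

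**Figure D1:**
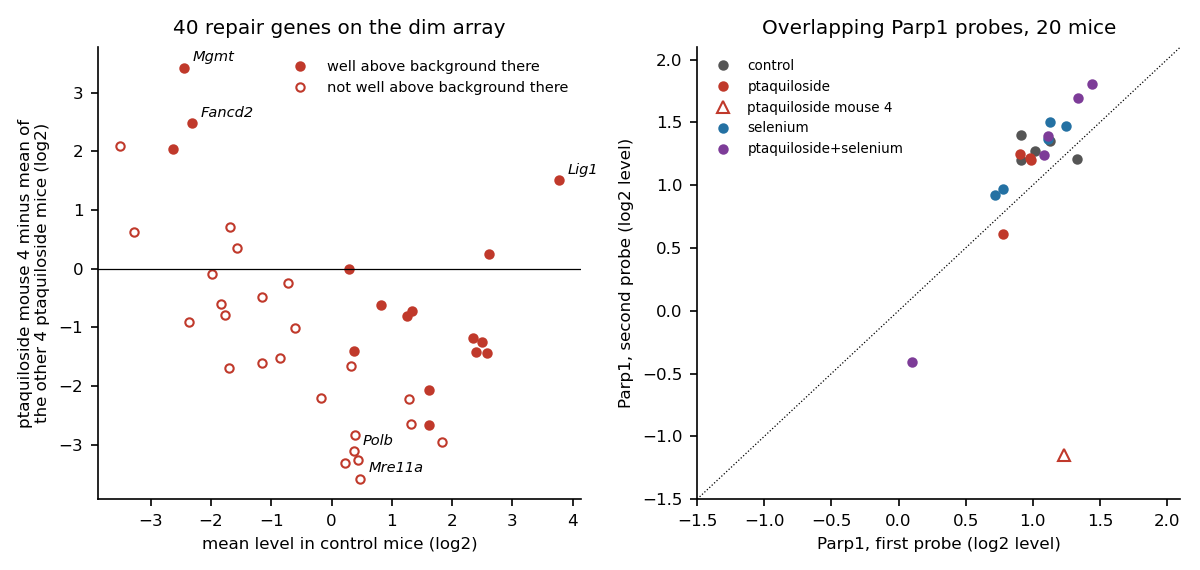
Left, the reading of ptaquiloside mouse 4 minus the mean of the other 4 ptaquiloside mice (log2) for each of the 40 repair genes, against the mean level in control mice (log2); filled points were well above background on that array. Right, the level (log2) of the second Parp1 probe (vertical) against the first (horizontal) in each of the 20 mice, with the dotted line at equality; 19 mice lie near the line and ptaquiloside mouse 4, the open triangle, lies far below it.

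This comparison asks whether NK cell samples of mice given the alkylating toxin carried more or less message for the enzymes that repair alkylated and broken DNA. No repair gene passed the test in ptaquiloside against control mice: limma called 0 of the 40 at an adjusted p under 0.05, where it called 0% of all genes. The adjusted p of the 40 lay between 0.801 and 0.979. At an unadjusted p under 0.05 there were also 0 of the 40, against 1.5% of all genes. With all 5 mice 29 of the 40 had the lower mean under ptaquiloside, against 50.3% of all genes, and the median difference was -0.22 against -0.0040 for all genes. Without ptaquiloside mouse 4 the split was 22 higher and 18 lower, against 50.1% of all genes lower, and the median was 0.030. The excess of lower means thus rested on that mouse. Marker lists differed beside it: 16 of 19 proliferation markers were lower, at a median of -0.28 (-0.19 without mouse 4), with a summed level of 5.80 to 7.04 against 6.57 to 7.23 in control mice. Of the 12 NK cell markers 9 were lower, at a median of -0.19, and 10 were higher without mouse 4, at a median of 0.14; their summed level was 7.98 to 9.22. All 7 measured neutrophil markers were lower, at a median of -0.73 (-0.26 without mouse 4), summed 6.03 to 8.14 against 7.56 to 8.55. Of the 8 B cell markers 6 were lower, at a median of -0.53, and 8 without mouse 4, at -0.51, summed 2.50 to 5.25 against 3.99 to 5.43. The 8 T cell markers were split with all mice, at a median of -0.082, and 8 were lower without mouse 4, at -0.30. Of the 5 erythroid markers 3 were lower, at a median of -0.41 (-0.26 without mouse 4). Their part in the repair gene values was not tested.

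**Figure D2:**
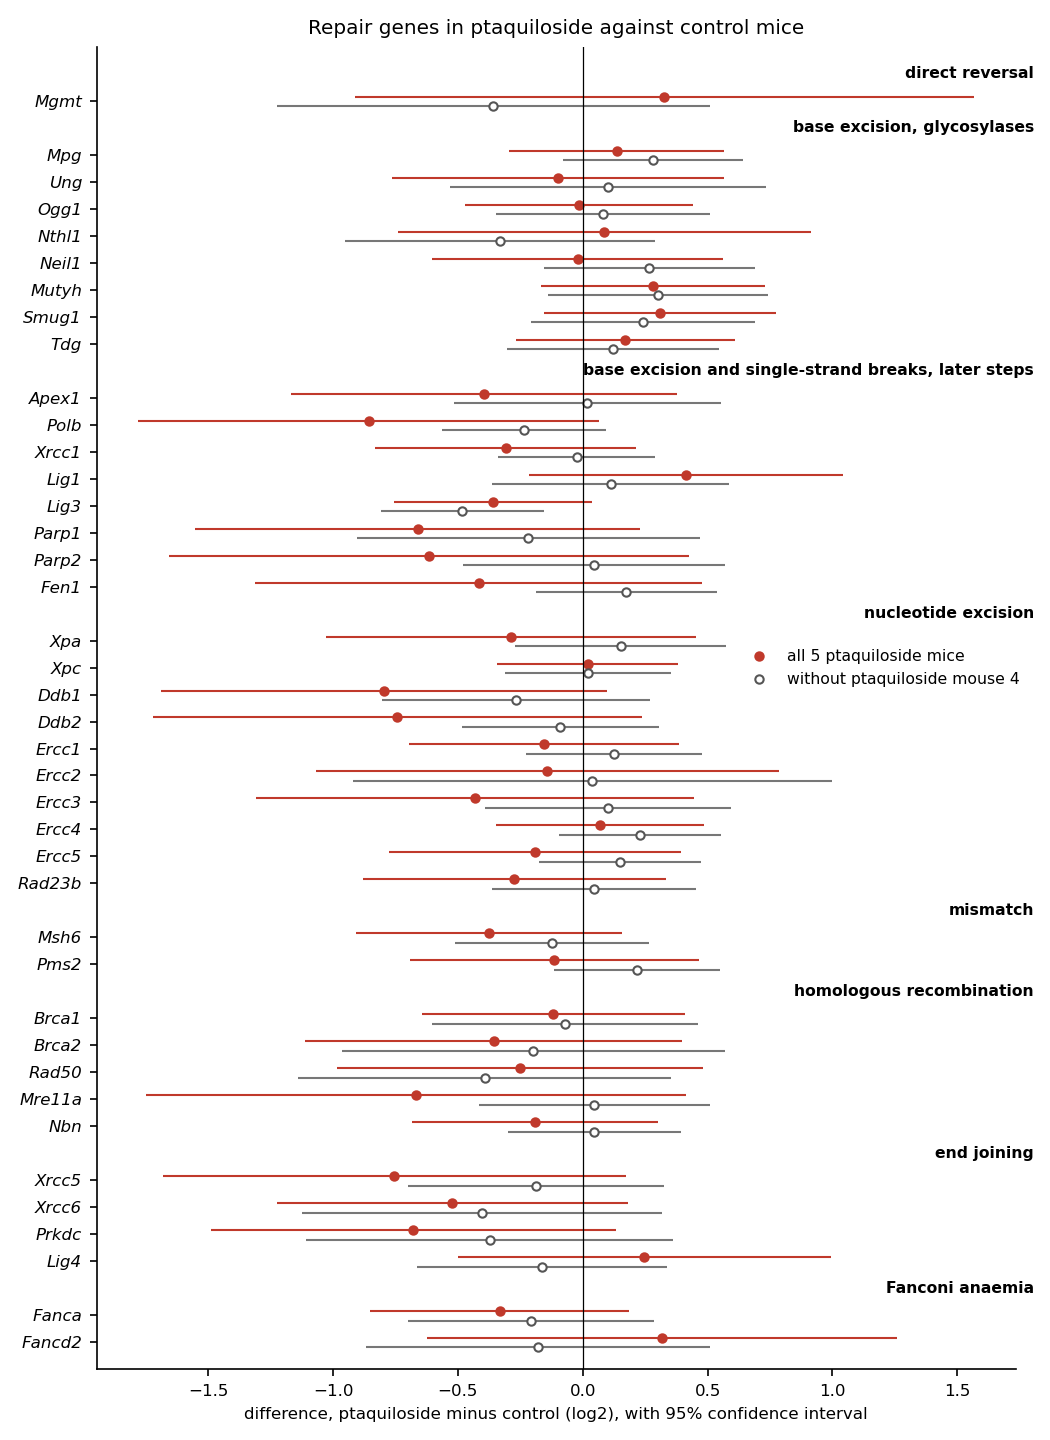
Difference between ptaquiloside and control mice (log2, horizontal axis) for the 40 repair genes in pathway order, as fitted by limma; bars are 95% confidence intervals. Filled points use all 5 ptaquiloside mice and open points leave out ptaquiloside mouse 4; every interval from all 5 mice spans 0, and without that mouse only the one of Lig3 does not.

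Mgmt, the direct reversal enzyme that takes methyl groups from the oxygen of guanine onto itself and is used up by doing so, was dim but well above background on all 20 arrays. Its level in the 5 control mice was -2.78, -1.92, -3.26, -2.13 and -2.11. In the ptaquiloside mice it was -3.49, -2.69, -2.80, 0.63 and -2.22. The reading of mouse 4 was the highest of all 20, and the other 4 ptaquiloside mice lay within or just below the range of the controls. The level of mouse 4 is relative to a 75th percentile of 10.5 scanner units, against 107 to 121 on the control arrays. The difference was 0.33 ± 0.59 (SE; limma adjusted p = 0.845) with all mice and -0.36 ± 0.41 (limma adjusted p = 1.0) without mouse 4, so its sign turned and its 95% interval without that mouse, -1.23 to 0.51, spans 0. A second, dimmer Mgmt probe turned in the same way, from 0.62 to -0.34. Selenium mice read -2.95, -2.26, -3.39, -1.63 and -2.58, and mice given both compounds read -2.92, -2.65, -3.85, -2.36 and -1.71. The 4 groups overlapped. The other direct reversal genes on the list, Alkbh2 and Alkbh3, oxidise methyl groups off bases; Alkbh3, the one with the smaller p and the higher control level, of 1.28, differed by 0.17 ± 0.21 (SE; limma adjusted p = 0.801).

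The 8 glycosylases open base excision by cutting a damaged base from its sugar. Their differences were small: 5 were higher and 3 lower under ptaquiloside with all mice, at a median of 0.11, and 7 were higher without mouse 4, at a median of 0.18, none with an unadjusted p under 0.05 in either fit. Mpg, the glycosylase for alkylated purines, had a control level of 1.34 ± 0.22 (SD, n = 5), differed by 0.14 ± 0.21 (SE) and by 0.28 ± 0.17 without mouse 4, and was higher on 4 of 5 slides. Smug1, which removes uracil and oxidised pyrimidines, had the smallest p of the group. It read -1.62, -2.04, -1.64, -1.23 and -1.33 in control mice and -1.34, -1.61, -1.21, -0.99 and -1.18 in ptaquiloside mice, higher on 5 of 5 slides although the groups overlapped. The difference was 0.31 ± 0.22 (SE; limma adjusted p = 0.801), and 0.24 without mouse 4, but a second Smug1 probe gave 0.0026 and -0.32. Tdg, which takes thymine or uracil out of mispairs with guanine, had the highest control signal of the 8. Control mice read 2.82, 2.90, 2.71, 2.33 and 2.29 and ptaquiloside mice 3.18, 2.89, 2.65, 2.98 and 2.21, a difference of 0.17 ± 0.21 (SE; limma adjusted p = 0.801). Mice 1 and 4 lay above the controls and mouse 5 just below them, and a second Tdg probe gave -0.24, or 0.0053 without mouse 4.

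None of the remaining glycosylases had an unadjusted p under 0.05 by limma, with or without mouse 4. Ogg1, the enzyme for oxidised guanine, had a control level of -1.15 ± 0.37 (SD, n = 5) and differed by -0.016, or 0.082 without mouse 4. The other Ogg1 probe, which shares 40 bases with it, was lower both times, at -0.35 and -0.18. Mutyh, which removes adenine placed opposite oxidised guanine, had a control level of -1.99 ± 0.22 and differed by 0.28 and 0.30; a second Mutyh probe was well above background on 5 of 20 arrays, 0 of them of control mice, so no difference is given for it. Ung, the main uracil glycosylase, stood at -0.60 ± 0.52 and differed by -0.10 and 0.10. The sign turned with mouse 4 in Ung, Ogg1, Neil1 and Nthl1. Neil1, which acts on oxidised and ring-opened bases, stood at 2.58 ± 0.39 in controls and differed by -0.019 with and 0.27 without that mouse. Nthl1, an enzyme for oxidised pyrimidines that was well above background on 15 arrays, stood at -3.51 ± 0.49 and differed by 0.086 with and -0.33 without it.

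The later steps of base excision, which also mend single-strand breaks, held the 2 smallest p-values of the 40 genes, Polb and Lig3. Of the 8 members 7 were lower under ptaquiloside with all mice, at a median of -0.41, and 4 of 8 without mouse 4, at a median of -0.0036. Polb, the polymerase that fills the gap and trims its sugar end, had the smallest p. Its control mice agreed closely, at 0.34, 0.38, 0.39, 0.36 and 0.40. The ptaquiloside mice read 0.026, 0.49, -0.21, -2.97 and 0.25: 3 of the 4 with a bright array lay below every control and 1 lay above them all. The difference was -0.86 ± 0.44 (SE; 95% interval -1.78 to 0.065; limma adjusted p = 0.801) and -0.24 ± 0.16 (limma adjusted p = 1.0) without mouse 4. The other Polb probes gave -0.087 and -0.42 with all mice and -0.20 and -0.15 without mouse 4.

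Lig3, the ligase that seals the nick together with the scaffold Xrcc1, was the only repair gene whose ptaquiloside and control groups did not overlap once mouse 4 was left out. Its probe, at mm9 chr11:82615498-82615557 on the plus strand, was well above background on 17 arrays, on 3 of the 5 ptaquiloside arrays and on all 5 of the control arrays. Control mice read -3.32, -3.23, -2.93, -3.39 and -3.49. Ptaquiloside mice read -3.65, -3.55, -3.78, -3.13 and -4.04, all 4 on bright arrays below the lowest control and mouse 4 within the controls. The difference was -0.36 ± 0.19 (SE; limma adjusted p = 0.801) with all mice and -0.48 ± 0.16 (limma adjusted p = 1.0) without mouse 4, where its unadjusted 95% interval, -0.81 to -0.16, does not span 0. Among all genes 0.24% were lower without overlap in that fit, and 1 of the 40 was. A second Lig3 probe differed by 0.084 with and -0.17 without mouse 4. The normexp background correction brought the difference with all mice to -0.056.

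Lig1, which joins Okazaki fragments in replication and seals long-patch repair, had the highest control signal of the group. Control mice read 4.02, 4.19, 3.71, 3.60 and 3.36 and ptaquiloside mice 4.07, 3.92, 3.94, 5.39 and 3.61; only mouse 4 lay above the controls. The difference of 0.41 ± 0.30 (SE; limma adjusted p = 0.801) was 0.11 ± 0.23 without that mouse. Parp1 had a control level of 1.29 ± 0.089 (SD, n = 5). It differed by -0.66 ± 0.43 (SE; limma adjusted p = 0.801), and by -0.22 ± 0.33 without mouse 4. This probe was lower on 5 of 5 slides but was not well above background on the dim array. The first Parp1 probe, which read mouse 4 like the rest, differed by -0.082 with all mice and -0.15 without mouse 4. Its mean was 1.06 in controls and 0.91 in the 4 other ptaquiloside mice. On the slide of mouse 4 it read higher in the ptaquiloside mouse, at 1.24, than in the control mouse, at 0.91.

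Apex1, the nuclease that cuts the strand at the bare sugar, had a control level of 1.62 ± 0.35 and differed by -0.40 with and 0.018 without mouse 4. Xrcc1, the scaffold that holds ligase and polymerase at the break, stood at 2.40 ± 0.24 and differed by -0.31 and -0.025. For Parp2, a second break sensor, a control level of 0.22 ± 0.057 went with differences of -0.62 and 0.045. Fen1, which clips the flap left by strand displacement, stood at 1.83 ± 0.22 and differed by -0.42 and 0.17. In these 4 genes the difference lay between -0.025 and 0.17 once the dim array was left out.

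Nucleotide excision, the route for bulky and helix-bending adducts, had 8 of 10 members lower with all mice, at a median of -0.23, and 2 of 10 lower without mouse 4, at a median of 0.074. Ddb1 and Ddb2 form the complex that finds lesions in chromatin. Ddb1, with the smallest p of the group, read 1.06, 1.65, 1.46, 1.56 and 0.86 in control mice and 0.46, 1.10, 1.25, -1.59 and 1.39 in ptaquiloside mice. The groups overlapped, and the difference was -0.80 ± 0.43 (SE; limma adjusted p = 0.801), or -0.27 ± 0.25 (limma adjusted p = 1.0) without mouse 4. Ddb2 stood at 0.44 ± 0.035 (SD, n = 5) in controls and differed by -0.74 with and -0.090 without that mouse. Ercc3, a helicase of the transcription factor that opens the helix around the lesion, had the highest control signal of the 10. It read 1.51, 1.31, 1.86, 1.90 and 1.55 in control mice and 1.43, 1.46, 2.11, -0.94 and 1.90 in ptaquiloside mice, a difference of -0.43 ± 0.42 (SE; limma adjusted p = 0.801) that became 0.10 without mouse 4.

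The damage sensor Xpc had a control level of 0.29 ± 0.25 (SD, n = 5) and differed by 0.019 and, without mouse 4, by 0.022. Its reading on the dim array was close to those of the other mice. A second, dimmer Xpc probe gave -0.26 and -0.18, opposite in sign both times. The Xpc partner Rad23b stood at -1.16 ± 0.24 and differed by -0.27 and 0.046. The other Rad23b probes gave -0.16 and -0.34 with all mice, and -0.32 and 0.085 without mouse 4. Xpa, which checks the lesion before the cut, stood at -0.18 ± 0.26 and differed by -0.29 and 0.15. The helicase Ercc2, well above background on 18 arrays, stood at -2.36 ± 0.40 and differed by -0.14 and 0.038. Ercc1, a nuclease subunit, stood at 0.37 ± 0.18 and differed by -0.16 and 0.13. Ercc4, which cuts together with Ercc1, stood at 1.25 ± 0.21 and differed by 0.068 and 0.23. A second, dimmer Ercc4 probe gave 0.092 and -0.031. Ercc5, which cuts on the other side of the lesion, stood at -1.70 ± 0.31 and differed by -0.19 and 0.15.

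Of the 2 mismatch repair members, Msh6, which binds base mispairs including those of methylated guanine, read 2.58, 2.81, 2.62, 2.20 and 2.31 in control mice. Ptaquiloside mice read 2.76, 2.58, 2.11, 1.12 and 2.07, 3 of the 5 below every control. The difference was -0.37 ± 0.25 (SE; limma adjusted p = 0.801) and -0.12 ± 0.19 (limma adjusted p = 1.0) without mouse 4. Pms2, which nicks the strand to be replaced, stood at 0.33 ± 0.25 (SD, n = 5) and differed by -0.11 with and 0.22 without that mouse. A second Pms2 probe gave -0.55 and -0.52, the opposite sign of the first without mouse 4.

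Among the 5 members of homologous recombination, all were lower with all mice, at a median of -0.25, and 3 without mouse 4, at a median of -0.071. Mre11a, Rad50 and Nbn form the complex that grips and trims broken ends. Mre11a had the smallest p of the group and read 0.86, 0.81, 0.30, 0.020 and 0.37 in control mice and 0.53, 0.69, 0.57, -3.06 and 0.28 in ptaquiloside mice. It was the gene in which mouse 4 lay furthest below the rest, and the difference of -0.67 ± 0.52 (SE; limma adjusted p = 0.801) was 0.047 without it. Its other probes gave 0.068 and 0.091 with all mice and -0.38 and -0.17 without mouse 4, each time opposite in sign to the first; the last of them was well above background on 11 of 20 arrays. Nbn, with the highest control signal, read 2.39, 2.80, 2.13, 2.14 and 2.28 in control mice and 2.41, 2.58, 2.29, 1.21 and 2.28 in ptaquiloside mice, which is -0.19 ± 0.24 (SE; limma adjusted p = 0.801) and 0.046 without mouse 4. Rad50, well above background on 18 arrays, stood at -1.69 ± 0.33 (SD, n = 5) and differed by -0.25 and -0.39. Brca1, which steers ends toward recombination, stood at -0.72 ± 0.24 and differed by -0.12 and -0.071. Brca2, which acts on the trimmed strand, stood at -1.76 ± 0.71 and differed by -0.36 and -0.20.

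End joining had lower means in 3 of its 4 members with all mice and in 4 of 4 without mouse 4, the medians being -0.60 and -0.28. Xrcc5 and Xrcc6 are the Ku subunits that ring a broken end, and Prkdc is the kinase they recruit. Prkdc read -1.10, -0.37, -0.82, -1.03 and -1.0 in control mice and -1.59, -0.40, -1.88, -2.76 and -1.07 in ptaquiloside mice. On 5 of 5 slides the ptaquiloside mouse was below the control mouse, with slide differences of -1.73 to -0.032. The difference was -0.68 ± 0.39 (SE; limma adjusted p = 0.801) and -0.37 ± 0.35 (limma adjusted p = 1.0) without mouse 4. The Prkdc probe is printed 10 times on each array, and the SD of the 8 to 10 spots kept was 0.054 to 0.13 on the 19 other arrays and 0.39 on the dim one.

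Xrcc5, with the highest control signal of the 4, read 0.49, 0.93, 0.23, -0.0041 and 0.27 in control mice and 0.14, 0.66, -0.020, -2.64 and 0.0042 in ptaquiloside mice. It was lower on 5 of 5 slides, with slide differences of -2.64 to -0.25, while the groups overlapped; the difference was -0.75 ± 0.44 (SE; limma adjusted p = 0.801) and -0.19 ± 0.24 without mouse 4. Xrcc6 stood at -1.84 ± 0.48 (SD, n = 5) in controls, was also lower on 5 of 5 slides, and differed by -0.52 with and -0.40 without mouse 4. On the dim array, which is 1 of these slide readings, none of the Prkdc, Xrcc5 and Xrcc6 probes was well above background. With the slide as a block Xrcc6 was the only one of the 40 with an unadjusted p under 0.05 (limma adjusted p = 0.666), where 0.899% of all genes were lower at that p. Lig4, the ligase that seals the joined ends, stood at -2.62 ± 0.33 and differed by 0.25 with and -0.16 without mouse 4. A second Lig4 probe of similar brightness gave -0.11 and -0.057, opposite in sign to the first with all mice. The 60 bases of each of the Prkdc, Xrcc5 and Xrcc6 probes map across an intron. These probes are shown because they carry the slide-by-slide values.
Prkdc probe, mm9 chr16:15839317-15841922, plus strand: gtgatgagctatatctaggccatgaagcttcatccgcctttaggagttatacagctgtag
Xrcc5 probe, mm9 chr1:72430014-72430320, plus strand: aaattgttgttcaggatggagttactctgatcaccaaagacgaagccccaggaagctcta
Xrcc6 probe, mm9 chr15:81861655-81866128, plus strand: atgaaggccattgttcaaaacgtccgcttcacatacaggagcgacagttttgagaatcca

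The Fanconi anaemia pathway, which unhooks crosslinks between the strands, was represented by Fanca and Fancd2. Fanca, of the core complex, read 0.86, 1.26, 0.88, 0.59 and 0.48 in control mice and 1.04, 1.0, 0.11, -0.014 and 0.26 in ptaquiloside mice. Ptaquiloside mice 3, 4 and 5 lay below every control, and the difference was -0.33 ± 0.25 (SE; limma adjusted p = 0.801), or -0.21 without mouse 4. Fancd2, which the core complex marks with ubiquitin, stood at -2.31 ± 0.46 (SD, n = 5) and differed by 0.32 with and -0.18 without that mouse; a second Fancd2 probe was well above background on 6 of 20 arrays, 0 of them of ptaquiloside mice, so no difference is given for it.

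**Figure D3:**
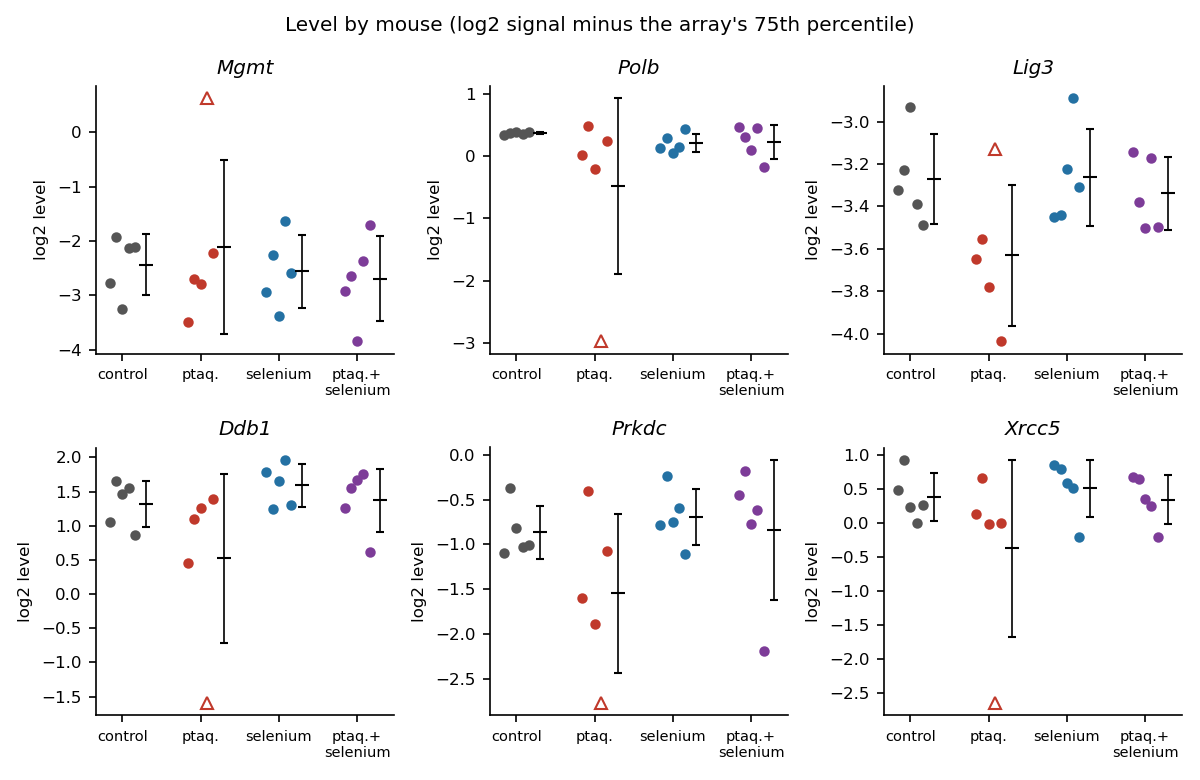
Level of Mgmt, Polb, Lig3, Ddb1, Prkdc and Xrcc5 (log2 signal minus the array's 75th percentile, vertical axis) in each mouse of the 4 groups; bars to the right of the points are the mean ± SD of 5 mice. The open triangle is ptaquiloside mouse 4, highest of all in Mgmt and lowest of all in Polb, Ddb1, Prkdc and Xrcc5; in Lig3 the 4 other ptaquiloside mice lie below every control.

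Beyond the 40, 70 of 73 other genes listed for these pathways and for translesion synthesis were measured. Of these, 0 passed the test in either direction, with 27 higher and 43 lower under ptaquiloside at a median of -0.11, and 39 higher and 31 lower without mouse 4, at a median of 0.031. Aplf, a factor that tethers end-joining proteins to marked breaks, had the smallest p, with a difference of -0.47 ± 0.22 (SE; limma adjusted p = 0.801) and -0.38 without mouse 4. Pcna, the sliding clamp of replication and long-patch repair and the listed gene of that step with the highest control level, 4.54, differed by -0.66 and 0.0068. In nucleotide excision Gtf2h5 had the smallest p, at -0.69 and -0.0015, and Xab2 the highest control level, at -0.028 and 0.11. Dclre1c, the nuclease that opens hairpin ends, differed by -0.40 and -0.14, and the polymerase Polm by 0.0044 and 0.36. The mismatch gene Msh3 differed by -0.42, or -0.046 without mouse 4. In recombination Xrcc2 differed by 0.58 and 0.36 and Rbbp8 by -0.20 and 0.18. Fancg and Fance of the Fanconi core differed by -0.37 and 0.078, or -0.17 and 0.12 without mouse 4. The glycosylase Mbd4 differed by 0.33 and 0.21, and the translesion polymerase genes Poli and Rev3l by -0.28 and -0.27, or -0.073 and -0.042.

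In mice given selenium alone, Brca2, Fancd2, Brca1, Lig1 and Fen1 had the largest differences from control of the 40 genes, with means 0.48 to 0.75 above it on the log2 scale. No repair gene passed the test: limma called 0 of the 40, as it called 0% of all genes, with every adjusted p of the 40 at 1.0. At an unadjusted p under 0.05 there was 1 of the 40, Brca1, higher, against 0.401% of all genes. Of the 40, 29 had the higher mean, against 52.7% of all genes, and the median difference was 0.090 against 0.014.

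Brca1 read -0.45, -0.52, -0.75, -1.04 and -0.83 in control mice and -0.39, 0.29, 0.38, 0.050 and -1.04 in selenium mice. Selenium mice 1 to 4 lay above every control and mouse 5 lay among the lowest. The difference was 0.58 ± 0.25 (SE; unadjusted 95% interval 0.053 to 1.11; limma adjusted p = 1.0), higher on 4 of 5 slides. Brca2 read -1.64, -0.61, -2.04, -2.46 and -2.08 in control mice and -0.56, -0.91, -0.67, -0.96 and -1.98 in selenium mice, a difference of 0.75 ± 0.36 (SE; limma adjusted p = 1.0) on 4 of 5 slides, again with mouse 5 apart. Lig1 read 4.02, 4.19, 3.71, 3.60 and 3.36 in control mice and 4.43, 4.78, 4.50, 4.51 and 3.46 in selenium mice, of which mice 1 to 4 lay above every control. It differed by 0.56 ± 0.30 (SE; limma adjusted p = 1.0) and was higher on 5 of 5 slides. Fen1 was higher on 5 of 5 slides as well, by 0.48 ± 0.43 (SE; limma adjusted p = 1.0), and Fancd2 on 4 of 5, by 0.64 ± 0.45 (SE; limma adjusted p = 1.0). Both of these were chosen for naming after their values were seen.

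All 20 arrays share 1 estimate of the spread, so leaving out ptaquiloside mouse 4 changed the tests but not the differences of this comparison. In that fit 4 of the 40, Brca1, Brca2, Lig1 and Fen1, were higher at an unadjusted p under 0.05, against 1.15% of all genes. With the slide as a block as well, Fancd2 joined them, against 2.67% of all genes, and their adjusted p lay between 0.767 and 0.900. The calls stayed at 0 in every one of these fits.

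Markers of dividing cells and of other cell types differed beside these genes, some higher and some lower. All 19 measured proliferation markers, such as Mki67 and the Mcm helicase genes, had the higher mean in selenium mice, with differences of 0.26 to 0.84 and a median of 0.70; 1 of them had an unadjusted p under 0.05 and 0 passed the test. Their summed level was 7.04, 7.23, 6.82, 6.57 and 6.63 in control mice 1 to 5 and 7.44, 7.70, 7.59, 7.26 and 6.72 in selenium mice 1 to 5. Selenium mouse 5 was the lowest of its group here too, as it was in Lig1, Brca1, Brca2, Fancd2 and Fen1. All 8 B cell markers were lower, at a median of -1.06, with a summed level of 2.78 to 4.23 against 3.99 to 5.43 in control mice. All 8 T cell markers were lower, at a median of -0.44, summed 2.52 to 3.07 against 2.50 to 4.03. The 7 measured neutrophil markers were higher, at a median of 0.57, summed 7.34 to 9.46 against 7.56 to 8.55. All 12 NK cell markers were higher too, at a median of 0.24. Of the 8 macrophage and monocyte markers 7 were lower, at a median of -0.40. The part of these cells in the higher repair genes was not tested.

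**Figure D4:**
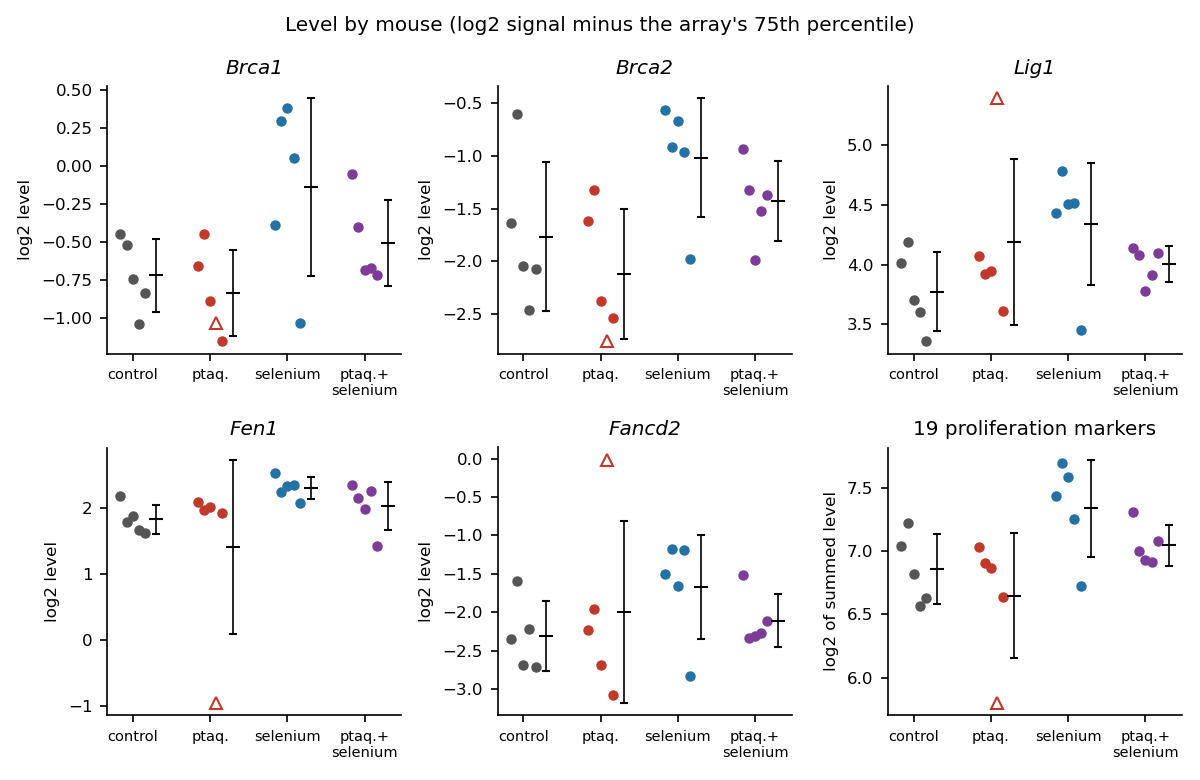
Level of Brca1, Brca2, Lig1, Fen1 and Fancd2 (log2 signal minus the array's 75th percentile, vertical axis) and the log2 summed level of 19 proliferation markers in each mouse of the 4 groups; bars are the mean ± SD of 5 mice, and the open triangle is ptaquiloside mouse 4. Selenium mouse 5 is the lowest of its group in every panel.

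Not all repair genes stood higher under selenium. Ddb2 was the only 1 of the 40 whose selenium and control groups did not overlap, and it was lower, where 0.275% of all genes were lower without overlap. It read 0.44, 0.44, 0.45, 0.39 and 0.48 in control mice and 0.32, 0.068, 0.30, 0.38 and 0.33 in selenium mice, a small difference of -0.16 ± 0.47 (SE; limma adjusted p = 1.0). The SE was 0.18 in the fit without ptaquiloside mouse 4. Mgmt differed by -0.12 ± 0.59 (SE), and the glycosylases by -0.21 to 0.38, 7 of 8 of them higher. Nucleotide excision was split, with 6 of 10 higher at a median of 0.033. Among the 70 other repair genes 54 were higher, at a median of 0.10, and 0 passed the test. In recombination 12 of 13 were higher, and Brip1, a helicase that binds Brca1, had the smallest p there, at 0.71 ± 0.29 (SE; limma adjusted p = 1.0). Exo1, a nuclease of mismatch repair and end trimming, differed by 0.72 ± 0.36 (limma adjusted p = 1.0), and Neil3, a glycosylase of dividing cells, by 0.92 ± 0.48 (limma adjusted p = 1.0). Ercc6, which couples repair to transcription, was lower on 5 of 5 slides, with a difference of -0.63 ± 0.34 (limma adjusted p = 1.0).

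With all mice, the repair genes of the group given both compounds lay close to control. Of the 40, 22 had the higher mean and 18 the lower, against 54.5% of all genes higher, and the median difference was 0.017 against 0.019 for all genes. None passed the test, and neither did any other gene (0% called by limma), and 0 of the 40 had an unadjusted p under 0.05, against 0.229% of all genes. The 3 with the smallest p were Brca2, Brca1 and Ung. Brca2 read -0.94, -1.32, -1.99, -1.52 and -1.37 in the mice given both, 0.34 ± 0.36 (SE; limma adjusted p = 1.0) from control. Brca1 read -0.054, -0.40, -0.69, -0.67 and -0.72, higher than the control of its slide on 5 of 5 slides, at 0.21 ± 0.25 (SE; limma adjusted p = 1.0). Ung read -0.37, 0.13, -0.93, -1.23 and -0.61 in control mice and 0.20, -0.20, -0.48, -0.80 and -0.51 with both compounds, 0.24 ± 0.32 (SE; limma adjusted p = 1.0). The group overlapped with control in these 3 genes. All 19 proliferation markers were higher than in control mice, at a median of 0.24, and all 5 platelet markers lower, at a median of -0.25; their part was not tested. Mouse 5 of this group gave the lowest reading of the 19 arrays other than the dim one in 15 of the 40 genes, and its 75th percentile, 45.5 scanner units, was the lowest of those 19. With this mouse left out the split against control was 31 higher and 9 lower, at a median of 0.10 against -0.020 for all genes.

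Set against ptaquiloside alone, adding selenium left 27 of the 40 with the higher mean, where 51% of all genes were higher, at a median of 0.30 against 0.011; without ptaquiloside mouse 4 it was 21 of 40, against 52.5%, at a median of 0.037. The authors' deposited table without the columns they replaced gave 14 of 40 higher, at a median of -0.081 with all genes at -0.10. None of the 40 passed the test, and neither did any other gene (0% called by limma). At an unadjusted p under 0.05 there were 0 of the 40, against 2.43% of all genes. Msh6 had the smallest p: mice given both read 2.80, 2.76, 2.63, 2.41 and 2.69, above the ptaquiloside mouse on 5 of 5 slides, for a difference of 0.53 ± 0.25 (SE; limma adjusted p = 0.821) and 0.28 ± 0.19 without mouse 4. Ddb1 read 1.27, 1.55, 1.67, 1.76 and 0.61 with both compounds and differed by 0.85 ± 0.43 (SE; limma adjusted p = 0.821), or 0.32 without mouse 4. Brca2, higher on 5 of 5 slides, differed by 0.70 ± 0.36 (SE; limma adjusted p = 0.821), or 0.54 without mouse 4. Lig3 was the 1 gene of the 40 whose groups did not overlap without mouse 4, against 0.303% of all genes higher without overlap. It read -3.14, -3.38, -3.50, -3.17 and -3.50 with both compounds, 0.42 ± 0.16 (SE; limma adjusted p = 0.998) above the 4 other ptaquiloside mice, the same mice that set it apart from control. Marker lists differed beside these genes. Of the 19 proliferation markers 18 were higher than with ptaquiloside alone, at a median of 0.60 (16 at 0.50 without mouse 4). All 7 neutrophil markers were higher, at a median of 1.08, 4 of them at an unadjusted p under 0.05 and 0 past the test, and at 0.68 without mouse 4. Of the 8 B cell markers 7 were higher, at a median of 0.36 (8 at 0.40 without mouse 4), and all 5 erythroid markers, at 0.61. Of the 12 NK cell markers 10 were higher, at a median of 0.13, but 3 without mouse 4, at -0.039. Of the 8 T cell markers 5 were higher, at a median of 0.31, and 8 without mouse 4, at 0.45. Their part was not tested.

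Set against selenium alone, adding ptaquiloside left 33 of the 40 with the lower mean, where 49.9% of all genes were lower, at a median of -0.12 against 0.00053. The differences were small, -0.54 to 0.39. Without mouse 5 of the group given both, 25 of the 40 were lower, at a median of -0.021 with all genes at -0.039. With all mice none of the 40 passed the test, and neither did any other gene (0% called by limma). At an unadjusted p under 0.05 there were 0 of the 40, against 0.584% of all genes. Brca1 had the smallest p, at -0.37 ± 0.25 (SE; limma adjusted p = 1.0), with the values by mouse given above. Neil1 was higher on 5 of 5 slides: it read 2.81, 2.91, 2.80, 2.55 and 2.74 with both compounds and 2.18, 2.55, 2.31, 2.37 and 2.43 with selenium alone, 0.39 ± 0.28 (SE; limma adjusted p = 1.0). Control mice read 2.89, 2.48, 1.95, 2.70 and 2.90 for Neil1, a wider range than either group. Ogg1 read -1.32, -1.06, -1.29, -1.33 and -1.0 with both and -0.89, -0.45, -0.75, -1.20 and -1.27 with selenium alone, -0.29 ± 0.22 (SE; limma adjusted p = 1.0). All 19 proliferation markers were lower in this comparison as well, at a median of -0.30, and all 8 B cell markers were higher, at a median of 1.0. All 12 NK cell markers were lower, at a median of -0.14. All 8 T cell markers were higher, at a median of 0.69, and all 5 platelet markers lower, at a median of -0.57. The part of these cells was not tested. The comparisons with selenium mice share those 5 arrays, so they are not separate evidence for the same genes.

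The interaction asks whether the effect of ptaquiloside differed with and without selenium. None of the 40 genes passed it, and neither did any other gene (0% called by limma), and 0 had an unadjusted p under 0.05, against 1.2% of all genes. Lig1 had the smallest p, at -0.75 ± 0.43 (SE; limma adjusted p = 0.998) and -0.45 without mouse 4; mice given both read 4.14, 4.08, 3.78, 3.91 and 4.10. Mutyh came next, at -0.45 ± 0.30 (SE; limma adjusted p = 0.998). Its levels were -1.93, -1.70, -2.33, -2.0 and -1.98 in control, -1.97, -1.86, -1.23, -1.78 and -1.70 in ptaquiloside, -2.39, -1.55, -2.02, -1.68 and -1.85 in selenium and -1.83, -1.84, -1.98, -2.01 and -2.66 in the group given both. The low reading of mouse 5 of the last group and the high one of ptaquiloside mouse 3 stand out there. Polb differed by 0.88 ± 0.62 (SE; limma adjusted p = 0.998) and by 0.25 without mouse 4. It read 0.13, 0.29, 0.057, 0.14 and 0.43 with selenium and 0.46, 0.30, 0.094, 0.45 and -0.17 with both compounds.

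The promoters of the repair genes were described by sequence features that the choice of genes did not use. RefSeq promoters (GRCm38.p6, 250 bases before to 50 after the start) were matched for 31 of the 40. They held a median of 21 CpG in 300 bases against 7 over all 27025 promoters. On either strand the GC box GGGCGG was found in 61.3% of them against 35.9% of all, and CCAAT in 61.3% against 37.9%. TATAAA was found in 9.68% against 14.2%. Exact E2F words (TTTCCCGC, TTTGCCGC, TTTCGCGC or TTTGGCGC, either strand), named for the factors that switch on replication genes, were found in 4 of the 31, 12.9%, against 2.32% of all: Nthl1, Msh6, Brca2 and Xrcc6. All 4 E2F words and the GC box contain CG, and the promoters compared were not matched for CpG. Their higher shares therefore cannot be told apart from the higher CpG content. A match is a description of letters, not a bound site. Brca2 and Xrcc6 hold the same word and are printed up to the RefSeq start, since Brca2 had the largest difference under selenium and Xrcc6 was lower on every slide under ptaquiloside; capitals mark the E2F word.
Brca2, GRCm38.p6 chr5:150522371-150522620, plus strand: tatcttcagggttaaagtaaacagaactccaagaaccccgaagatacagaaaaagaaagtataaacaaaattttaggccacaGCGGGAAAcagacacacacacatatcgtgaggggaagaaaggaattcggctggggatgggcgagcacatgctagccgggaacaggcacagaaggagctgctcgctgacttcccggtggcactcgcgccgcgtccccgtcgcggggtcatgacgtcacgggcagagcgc
Xrcc6, GRCm38.p6 chr15:82016119-82016368, plus strand: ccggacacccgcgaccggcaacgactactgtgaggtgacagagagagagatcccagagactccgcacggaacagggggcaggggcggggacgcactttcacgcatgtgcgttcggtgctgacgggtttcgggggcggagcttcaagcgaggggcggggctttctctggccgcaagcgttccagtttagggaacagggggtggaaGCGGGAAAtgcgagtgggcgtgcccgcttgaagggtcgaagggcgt
In Brca2 the word begins 168 bases before the start and in Xrcc6 46 bases before it, both in the reverse orientation. Brca1, Lig1 and Fen1, which also stood higher under selenium, had none of the 4 words in this window, and Fancd2 was not matched.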

How the data were processed

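Spleen NK cell RNA of 20 mice was hybridised to 20 Agilent arrays with 1 dye (Cy3). The deposited scanner files hold spot intensity, and the processed signal is background-subtracted and not scaled between arrays, per the file headers; per the submitters' processing notes Agilent Feature Extraction 9.5.3.1 was used. The deposited table holds log2 signal; per its header, control mouse 1 and ptaquiloside mouse 4 were replaced by averages of their group mates, and Student's test with a false discovery rate was used. Its other columns followed the scanner values of 1 array each with a slope of 1.0, so scale and direction are those of log2 signal, with an added constant of unknown origin (column medians 22.8 to 23.7). It served as an alternative without the replaced columns. The scanner's spot flags were used as deposited.

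A level is the log2 processed signal of a probe after subtracting the 75th percentile of its array (control spots left out). Outlier spots were left out, spots of a probe averaged, probes well above background on at least 5 arrays kept, and the brightest probe taken per gene (17466 genes, 279 missing values). Differences were tested two-sided with limma 3.58.1 (R 4.3.3, data.table version 1.17.8), 1 mean per group over 20 arrays, Benjamini-Hochberg adjustment over all genes at 0.05 in each of 6 contrasts. The fit was tested on simulated data. Every one of the 40 genes is named; per-mouse values are given for Mgmt, for the gene with the highest control level and the smallest p in each pathway, and for the 3 smallest p in each other contrast. Xrcc6, Parp1, and Lig3 and Ddb2 by mouse, were described after their values were seen. Values of some other listed genes are not reported here. The 40 genes and all lists were chosen with earlier results of these data known. The mouse number is the slide in the file headers; same-numbered mice correlated at -0.084 to 0.65 in their deviations for ptaquiloside against control and at 0.10 to 0.71 for selenium against control. Probe coordinates are mm9, per the file headers; exon annotation was not used.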

Additional observations from a re-analysis of the deposited data

Results flagged for a closer look

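In each group of 5 mice the highest and the lowest level of every repair gene were set against the others with Dixon's gap ratio at its 95% critical value. Of 160 groups of 5, 29 held a mouse far from the others; chance gives about 1 in 20. Ptaquiloside mouse 4, the dim array, was that mouse in 16. It was far below its group in Polb at -2.97, Xrcc1 at 0.95, Parp1 at -1.15, Parp2 at -3.05, Fen1 at -0.95, Xpa at -2.23, Ddb2 at -2.91, Ercc1 at -0.92, Ercc3 at -0.94, Ercc5 at -3.25, Pms2 at -1.11, Mre11a at -3.06, Nbn at 1.21 and Xrcc5 at -2.64, and far above it in Lig1 at 5.39 and Lig4 at -0.74. Mouse 5 of the group given both compounds was far below in Mutyh at -2.66, Parp1 at -0.41 and Parp2 at -1.23. Selenium mouse 5 was far below in Lig1 at 3.46, Brca2 at -1.98 and Fancd2 at -2.83. Selenium mouse 2 was far below in Ddb2 at 0.07, Rad50 at -2.51 and Lig4 at -3.72. Mouse 1 of the group given both was far above in Rad23b at -0.63 and Fancd2 at -1.52. Control mouse 2 was far above in Ercc1 at 0.68, and control mouse 4 in Ercc2 at -1.66.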

How the results depend on the processing

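Calls stayed at 0 genes in all 5 comparisons and the interaction under every alternative run, except that leaving out 1 mouse at a time gave 0 to 1 gene in the interaction, the 1 without mouse 4 of the group given both. The methods' t-test, run on unscaled log2 signal of all 20 mice, called 0 of 43379 spots, and before adjustment 611 spots passed 0.05 for ptaquiloside against control, 1095 for selenium and 431 for both. With the slide as a replicate block 0 genes were called, the median of the 40 genes was -0.22 for ptaquiloside against control, and -0.00071 when mouse 4 was left out too. Leaving out 1 mouse at a time put that median between -0.28 and 0.030, the one above 0 being without ptaquiloside mouse 4. The normexp correction brought it to -0.027, median centring to -0.45 where all genes moved to -0.24, quantile normalization to -0.39 with all genes at -0.070, and the deposited table to -0.034 with all genes at -0.063. Of the 40 genes, 18 had some probe well above background on all 20 arrays, Parp1 and Mre11a through a dimmer probe than the one used above. With those probes the median was -8.1e-05, 9 being higher and 9 lower. This filter leaves out genes that were not well above background on the dim array. For selenium against control the range without 1 mouse was 0.054 to 0.17, and the deposited table gave -0.016 with all genes at -0.12. For both compounds against control that table gave -0.17 with all genes at -0.16, and against selenium median centring gave -0.23, with a range of -0.18 to -0.021 without 1 mouse, the highest without mouse 5 of the group given both. For both against ptaquiloside alone the median was 0.071 with normexp and 0.44 with quantile normalization. Median centring gave 0.48 where all genes moved to 0.20. The median was -0.0047 over the 18 genes with a probe above background on all arrays. It was 0.037 without ptaquiloside mouse 4 and up to 0.38 without 1 other mouse. The cause was not tested. Of 21 further probes in 18 genes, 7 pointed the other way for ptaquiloside against control and 9 did without mouse 4. With 5 mice a group and probes near background on the dim array, small differences could not be told from the spread.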
